A study of Mus musculus with 4 samples.

Results

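Mitosis in the embryonic lung is carried out by a set of proteins that are made shortly before a cell divides, and the genes of its spindle, checkpoint and cytokinesis machinery were followed in lungs of *Hmga2*-knockout and wild-type mouse embryos. The set held 43 genes chosen by function: kinesin motors, spindle assembly factors, cytokinesis regulators, mitotic kinases, checkpoint proteins, regulators of anaphase and the chromosomal passenger complex. Probe sets whose annotation gives exactly 1 gene symbol stood for these genes, and 42 of the 43 were measured this way, out of 19938 genes measured in all. *Kifc1*, a minus-end-directed kinesin, was left out because its probe set is annotated to a second gene as well. *Kif14* had 2 probe sets, of which the brighter was used, and each other gene had 1.

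Whole lung was taken at embryonic day 18.5 from 2 C57BL/6 *Hmga2* KO (*Hmga2*-/-) embryonic samples and 2 C57BL/6 WT (*Hmga2*+/+) samples. Each had 1 Affymetrix array, and no other allele or agent was named for them. The labels describe the samples of a group as biological replicates, but both WT titles carry the same name, WT1, before the replicate number. They give neither litter nor sex, nor whether lungs were pooled. The values are log2 summaries made by RMA, so a difference of 1 is a doubling, and every difference below is the mean of KO minus the mean of WT. The *Hmga2* mutation was bred through heterozygous mice, so every cell type of a KO lung carries it.

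The probe set for *Hmga2* itself read 9.65 and 9.39 on the arrays labelled KO, against 9.35 and 9.59 on the arrays labelled WT. These values overlapped, with a difference of 0.05 (SE 0.16, limma adjusted p = 0.892). Whether this probe set reads a deleted exon is unknown here, so it checks neither genotype label, and KO and WT below mean the arrays so labelled. The 2 KO arrays correlated with r = 0.997 over all probe sets and the 2 WT arrays with r = 0.985. WT replicate 1 stood apart: its r with the KO arrays was 0.976 and 0.976, whereas that of WT replicate 2 was 0.994 and 0.992, higher than the r between the WT arrays. The set as a whole and the related lists are therefore given against each WT array alone as well. Markers of lung tissue were present on every array, with *Nkx2-1*, the lung epithelial transcription factor, at 11.46 and 11.47 in KO and 11.31 and 11.41 in WT, and *Sftpc*, a surfactant protein of distal epithelium, at 13.98 and 14.01 in KO and 14.13 and 14.05 in WT. Whole lung mixes many cell types, and a larger share of dividing cells cannot be told apart from more of these transcripts in each dividing cell.

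Cell division depends on the spindle, an array of microtubules that kinesin motors and microtubule-associated proteins build and that separates the chromosomes. The spindle checkpoint holds back the anaphase-promoting complex (APC/C) until every chromosome is attached, after which the APC/C destroys securin, separase cuts cohesin and the cell divides at a cleavage furrow. Most genes of this machinery are transcribed late in the cell cycle, in G2 and mitosis. Their promoters often carry CCAAT boxes, bound by NF-Y, and a cell cycle genes homology region (CHR), bound by the MuvB core of the DREAM and MYB-MuvB complexes.

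Promoter sequence from RefSeq (build GRCm38.p6) was available for 36 of the 42 measured genes, in windows of 250 bases before to 50 bases after the annotated start. No window was used for *Kif20a*, *Cdc25c*, *Incenp*, *Aurkb*, *Dlgap5* and *Tpx2*. The 100 bases before the start are printed here for 4 genes with CCAAT and CHR matches close to the start, then for the 3 genes with the most unusual array values described below (*Ckap5*, *Cit* and *Pttg1*). Capitals mark CCAAT or its reverse complement ATTGG, and the CHR motif TTTGAA or its reverse complement TTCAAA, each read 5′ to 3′ on the strand of the gene.
*Kif11*, chr19:37376282-37376381, plus strand: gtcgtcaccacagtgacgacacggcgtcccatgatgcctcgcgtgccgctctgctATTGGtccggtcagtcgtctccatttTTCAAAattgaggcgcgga
*Cdc20*, chr4:118437344-118437443, minus strand: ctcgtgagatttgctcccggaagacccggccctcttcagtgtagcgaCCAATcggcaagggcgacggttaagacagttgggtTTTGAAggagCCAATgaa
*Ube2c*, chr2:164769829-164769928, plus strand: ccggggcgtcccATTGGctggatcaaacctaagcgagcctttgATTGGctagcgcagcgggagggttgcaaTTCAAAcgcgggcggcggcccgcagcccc
*Espl1*, chr15:102296193-102296292, plus strand: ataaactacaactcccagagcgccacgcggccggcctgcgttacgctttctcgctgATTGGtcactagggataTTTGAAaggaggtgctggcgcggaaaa
*Ckap5*, chr2:91526662-91526761, plus strand: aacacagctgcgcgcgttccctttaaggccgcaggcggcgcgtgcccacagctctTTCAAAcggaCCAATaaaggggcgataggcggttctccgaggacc
*Cit*, chr5:115845556-115845655, plus strand: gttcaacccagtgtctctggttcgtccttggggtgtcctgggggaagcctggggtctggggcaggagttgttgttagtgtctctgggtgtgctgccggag
*Pttg1*, chr11:43425982-43426081, minus strand: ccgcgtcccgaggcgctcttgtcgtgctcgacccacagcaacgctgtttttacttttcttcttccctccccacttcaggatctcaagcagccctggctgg

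In *Kif11*, *Ube2c* and *Espl1* a CCAAT match lay upstream of a CHR match, and in *Cdc20* a CHR match lay between 2 CCAAT matches. *Ckap5* held both motifs with the CHR match upstream, and *Cit* and *Pttg1* held neither in the whole window. Over the 36 genes, 26 (72.2%) had a CHR match in the window, against 17.3% of the 15614 measured genes with a window. Of all 27025 genes with a window, measured or not, 20.2% had one. CCAAT matches were present in 24 (66.7%), against 41.7% of measured genes and 41.1% of all genes with a window. Both motifs were present in 22 (61.1%), against 7.94% of measured genes, and neither in 8 (22.2%), against 49.0% of measured genes. The CHR matches lay near the start: 23 of the 36 genes (63.9%) had one lying between 50 bases before and 50 bases after it, a span chosen after the positions were seen, against 4.49% of measured genes. When only the 100 bases before the start were searched, the CHR share was 25.0%, against 5.23% of measured genes, and the other CHR matches began past the start or further upstream. CCAAT matches were present in 63.9% of the genes within those 100 bases, against 23.1% of measured genes, and in 55.6% within 50 bases on either side of the start, against 15.5% of measured genes.

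**Figure D1:**
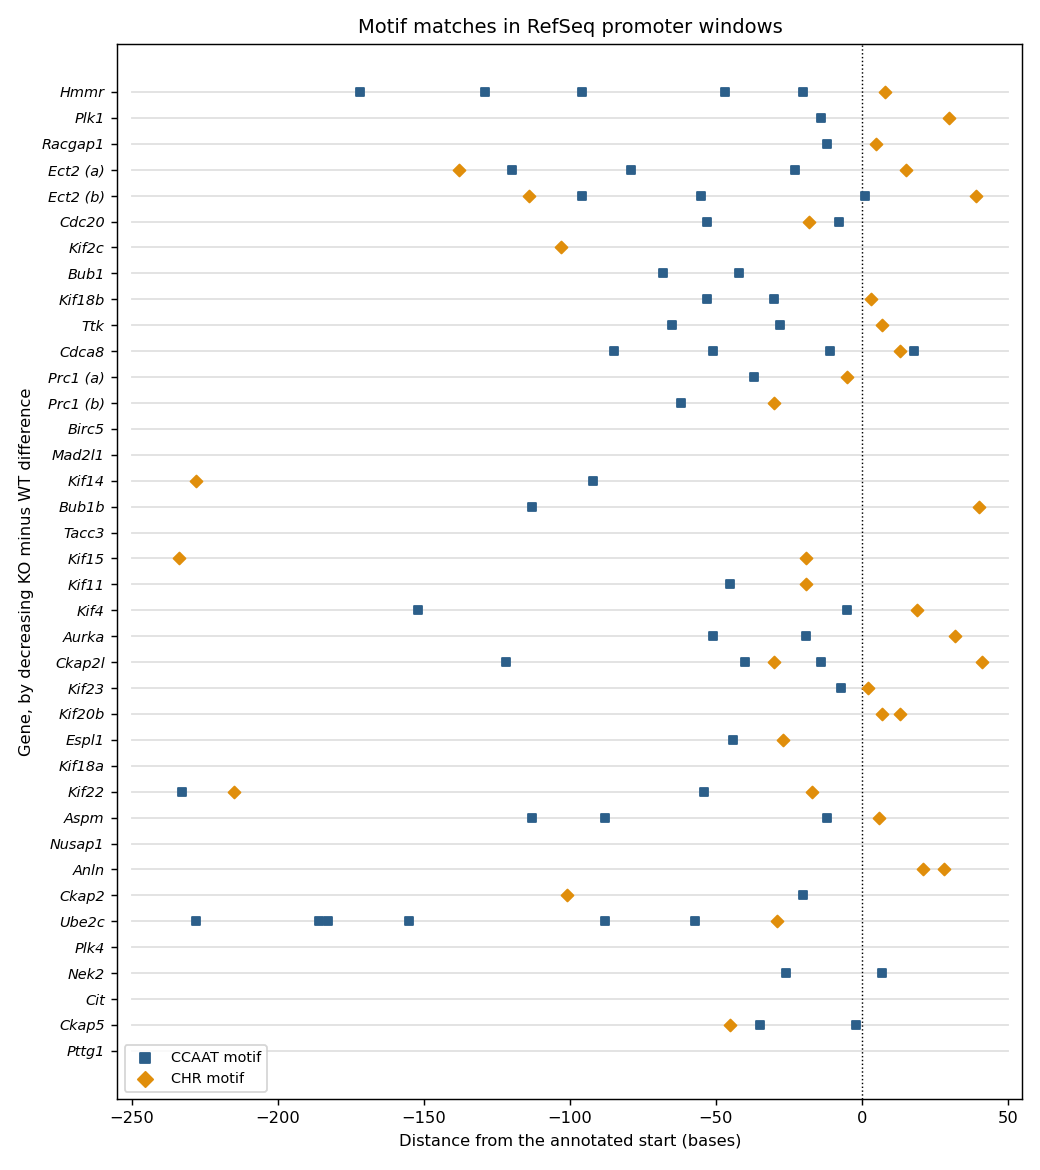
Positions of CCAAT and CHR matches in the RefSeq promoter windows of the 36 measured genes that have one, ordered by their KO minus WT difference. The x axis is the distance in bases of the first base of a match from the annotated start (dotted line), each grey line is 1 window, and *Ect2* and *Prc1* have 2 windows each (a and b). CHR matches gather around the start in 23 of 36 genes, and 8 of the 36 have no match of either motif, *Cit* and *Pttg1* among them.

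Of the 42 genes, 41 had a higher mean in KO than in WT, against 41.2% of all genes, and *Pttg1* had a lower mean, as 58.8% of all genes did. The median difference was 1.01 on the log2 scale, a fold of 2.01, whereas the median over all genes was -0.05. No gene of the set passed limma's adjusted p of 0.05 in either direction, against 0.0802% of all 19938 genes called higher and 0.702% called lower. Their adjusted p lay between 0.0607 for *Aspm* and 0.342 for *Pttg1*. This count depended on the fit: 37 genes passed higher without WT replicate 1 (2.53% of all genes), 41 without WT replicate 2 (16.7% of all genes), 0 without either KO array (0% of all genes), and 31 with the replicate number as a block (1.21% of all genes), although the labels do not pair the samples. Without a WT array every gene had the same SE of 0.155, and the gap between the WT arrays did not enter the test. The counts of those fits therefore reflect only the size of the difference and are not evidence beyond it. With all arrays and at an unadjusted p under 0.05, 41 of the 42 were higher, against 5.88% of all genes, and 1 was lower, against 8.58% of all genes. The higher count was 16 without KO replicate 1 (1.23% of all genes) and 29 without KO replicate 2 (2.49% of all genes). Both KO arrays lay above both WT arrays in 41 of 42 genes, against 17.6% of all genes. The difference was past 1.2-fold upward in 41, against 13.4% of all genes, and past 2-fold upward in 22, against 0.772% of all genes. With 2 arrays a group, an exact permutation test of a single gene cannot give a p below 0.333.

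The WT arrays lay far apart for this set. Averaged over the 42 genes, the log2 level was 10.27 and 10.15 on the KO arrays, against 8.84 on WT replicate 1 and 9.63 on WT replicate 2. WT replicate 2 exceeded WT replicate 1 in 41 genes, against 58.3% of all genes, by a median of 0.81, while the median over all genes was 0.06. KO replicate 1 exceeded KO replicate 2 in 38 genes, against 78.3% of all genes, by a median of 0.10, which was also the median over all genes. In 41 genes the order was the same: both KO arrays highest, WT replicate 2 between and WT replicate 1 lowest, an order seen in 15.3% of all genes.

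Against WT replicate 1 alone, the KO mean was higher by a median of 1.42, a fold of 2.68, and 37 genes were past 2-fold upward, against 2.13% of all genes. Against WT replicate 2 alone, the median was 0.61, a fold of 1.53, with 0 genes past 2-fold upward, against 0.125% of all genes. Past 1.2-fold upward, 41 genes remained against either WT array, where 22.9% of all genes exceeded WT replicate 1 and 6.01% exceeded WT replicate 2 by that amount. The KO minus WT replicate 1 difference can be split at WT replicate 2: over the 41 genes, a median of 58.3% of it lay between the WT arrays. That share was below 50% in 10 genes and ran between 17.9% for *Ckap5* and 68.9% for *Cdc20*.

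**Figure D2:**
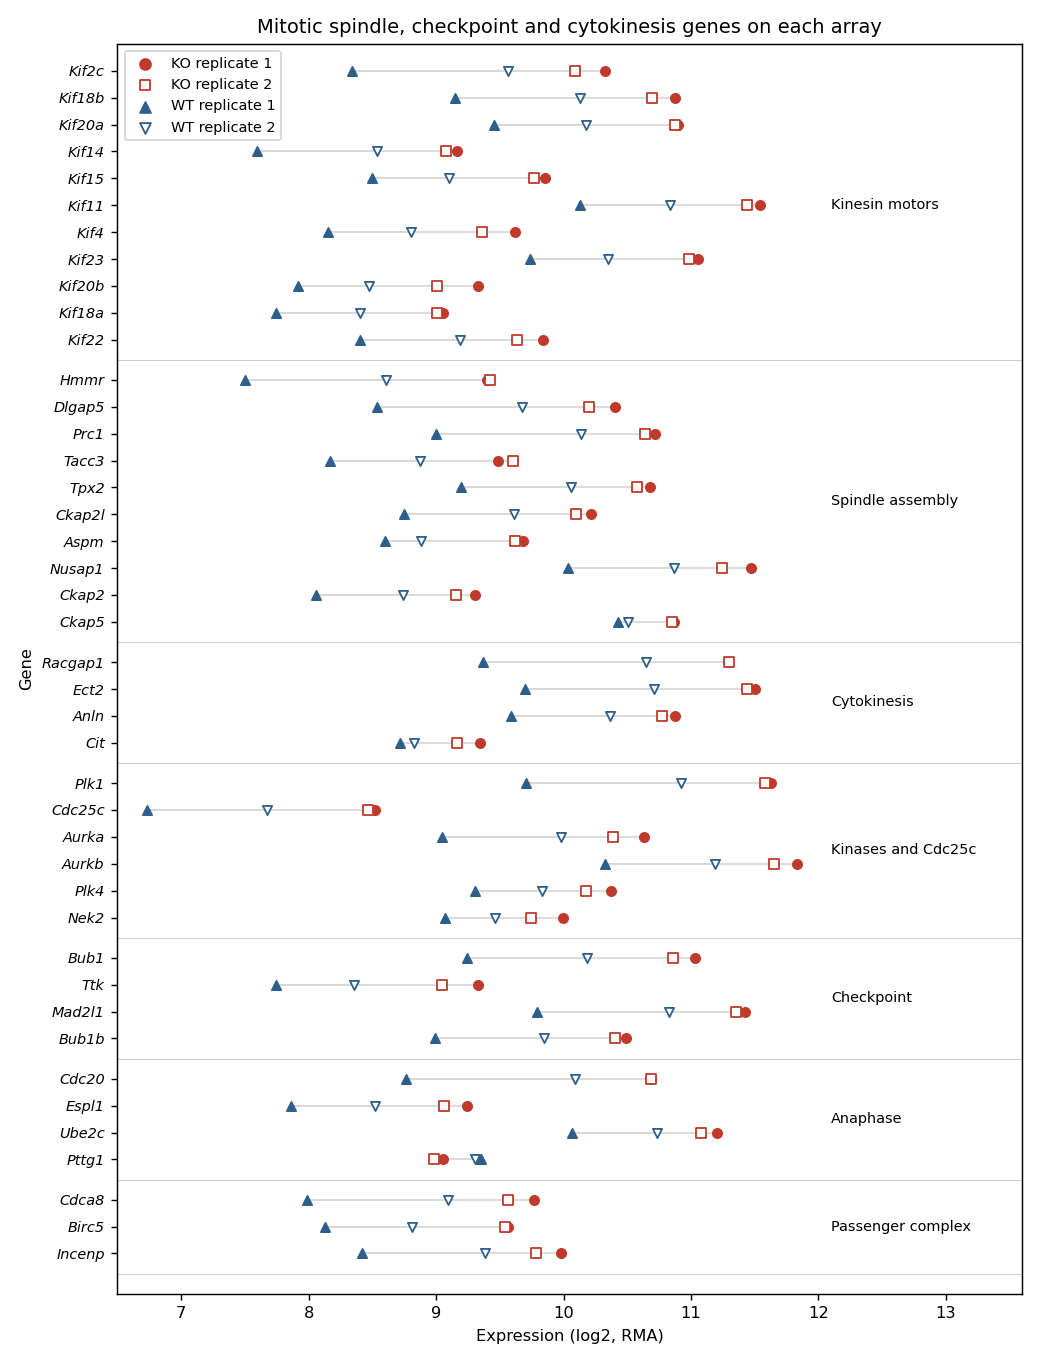
Log2 expression (RMA) of the 42 measured genes on each array, grouped by role, with KO replicates as red circles and squares and WT replicates as blue triangles. In 41 genes both KO arrays lie above WT replicate 2 (open triangles), which lies above WT replicate 1 (filled triangles), and in *Pttg1* both KO arrays lie below both WT arrays. Levels of different genes are not comparable, since probe sets differ in their response.

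Kinesin motors move chromosomes and slide microtubules during division. All 11 measured had a higher mean in KO, with a median difference of 1.01. *Kif2c* (MCAK), which depolymerizes microtubules at kinetochores, had the largest difference, with 10.32 and 10.09 in KO, against 8.34 and 9.57 in WT. Its difference was 1.25 (SE 0.37, limma adjusted p = 0.204), and the WT arrays lay 1.22 apart, about as far as the groups. *Kif22*, a chromokinesin that pushes chromosome arms outward, had the smallest, with 9.84 and 9.63 in KO, against 8.40 and 9.19 in WT, a difference of 0.94 (SE 0.26, limma adjusted p = 0.181). The motors thus lay within a narrow band. *Kif11* (Eg5), the motor that pushes spindle poles apart, was higher in KO by 1.01, and *Kif15*, which can share that task, by 1.01. *Kif18a*, which dampens chromosome oscillations, was higher by 0.96 and its relative *Kif18b*, which controls astral microtubules, by 1.14. *Kif4*, a chromosome-bound motor that shapes the midzone, was higher by 1.01. Among the motors of the midzone and midbody, *Kif23*, the motor subunit of centralspindlin, was higher by 0.98, *Kif20a* (MKLP2), which carries the passenger complex to the midzone, by 1.07, and *Kif20b* by 0.97. *Kif14*, needed for late cytokinesis, was higher by 1.06, and by 0.58 when its 2 probe sets were averaged.

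Spindle assembly factors nucleate, bundle and focus microtubules. All 10 had a higher mean in KO, with a median difference of 0.99 and a range between 0.39 and 1.36. *Hmmr*, a microtubule-binding protein that helps to focus spindle poles, had the largest difference of the whole set, with 9.40 and 9.42 in KO, against 7.50 and 8.61 in WT. It was higher by 1.36 (SE 0.33, limma adjusted p = 0.148). *Ckap5* (chTOG), a microtubule polymerase that also acts in interphase, had the smallest upward difference of the set, with 10.87 and 10.85 in KO, against 10.43 and 10.51 in WT. Its difference was 0.39 (SE 0.13, limma adjusted p = 0.231), and its WT arrays lay only 0.08 apart, so it had nearly the same difference from each. *Aspm*, a spindle pole protein that regulates spindle orientation and whose human gene is mutated in microcephaly, had the smallest p of the set, with 9.68 and 9.62 in KO, against 8.60 and 8.88 in WT. The difference was 0.91 (SE 0.15, limma adjusted p = 0.0607), and only 27.0% of its difference from WT replicate 1 lay between the WT arrays. *Tpx2*, which activates Aurora A on the spindle, was higher by 0.995, and *Tacc3*, which recruits *Ckap5* protein to spindle microtubules, by 1.02. *Dlgap5* (HURP), a stabilizer of kinetochore fibres, was higher by 1.19. *Prc1*, which bundles antiparallel microtubules of the midzone, was higher by 1.11, *Nusap1*, which links microtubules to chromatin, by 0.90, and *Ckap2* and *Ckap2l*, both spindle-binding proteins, by 0.83 and 0.98.

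Cytokinesis regulators place and close the cleavage furrow, and all 4 had a higher mean in KO. *Racgap1*, the GTPase-activating subunit of centralspindlin, read 11.29 and 11.30 in KO, against 9.36 and 10.64 in WT. The difference of 1.29 (SE 0.38, limma adjusted p = 0.202) was close to the 1.28 between the WT arrays. *Ect2*, the exchange factor that activates RhoA at the furrow, was higher by 1.27, and *Anln*, the anillin scaffold of the furrow, by 0.85. *Cit*, the citron kinase gene of the midbody, differed least, with 9.35 and 9.16 in KO, against 8.71 and 8.82 in WT, a difference of 0.49 (SE 0.14, limma adjusted p = 0.190). For *Cit* the WT arrays were 0.11 apart, less than the 0.19 between its KO arrays.

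The mitotic kinases and the phosphatase *Cdc25c*, which activates CDK1, had a higher mean in KO in 6 of 6 genes, with a median difference of 0.99. *Plk1*, the polo-like kinase of mitotic entry and spindle assembly, read 11.63 and 11.58 in KO, against 9.70 and 10.92 in WT. The difference was 1.29 (SE 0.36, limma adjusted p = 0.186), and the WT arrays lay 1.22 apart. *Nek2*, a kinase that separates centrosomes, had the smallest difference of the group, with 10.00 and 9.75 in KO, against 9.07 and 9.47 in WT, a difference of 0.60 (SE 0.18, limma adjusted p = 0.207). *Cdc25c* had the lowest reading of the set, with 8.52 and 8.47 in KO, against 6.73 and 7.67 in WT, a difference of 1.29 (SE 0.29, limma adjusted p = 0.123). *Aurka*, the Aurora kinase of spindle poles, and *Aurkb*, the catalytic subunit of the passenger complex, were higher by 0.997 and 0.99. *Plk4*, which starts centriole duplication in S phase rather than in mitosis, was higher by 0.71.

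The checkpoint kinases and proteins signal from kinetochores that are not yet attached. The 4 measured in this set formed the role group with the highest median, 1.11. *Bub3* and *Mad1l1*, also checkpoint genes, are counted below with the spindle and furrow genes used outside mitosis, and were higher by 0.51 and 0.28. *Bub1*, the kinase that recruits other checkpoint proteins, read 11.03 and 10.86 in KO, against 9.24 and 10.18 in WT, a difference of 1.23 (SE 0.29, limma adjusted p = 0.139). *Bub1b* (BubR1), part of the complex that inhibits the APC/C, had the smallest difference of the group, with 10.49 and 10.41 in KO, against 8.99 and 9.84 in WT, a difference of 1.03 (SE 0.27, limma adjusted p = 0.164). *Mad2l1* (MAD2), the inhibitor of CDC20, was higher by 1.08, and *Ttk* (MPS1), the kinase at the top of the pathway, by 1.13. *Ttk* showed the largest difference from WT replicate 2 of the set, 0.83.

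The genes that act with the APC/C at anaphase gave the only downward difference. *Cdc20*, its mitotic activator and the target of the checkpoint, read 10.69 and 10.69 in KO, against 8.76 and 10.09 in WT, a difference of 1.26 (SE 0.39, limma adjusted p = 0.219). The WT arrays were 1.33 apart for *Cdc20*, the widest WT gap of the set, while the KO arrays were equal to 2 decimals. *Ube2c*, the ubiquitin-conjugating enzyme that starts ubiquitin chains for the APC/C, was higher by 0.74. *Espl1* (separase), the protease that cleaves cohesin, was higher by 0.96. *Pttg1* (securin), the inhibitor of separase and a substrate of the APC/C, read 9.06 and 8.99 in KO, against 9.35 and 9.30 in WT. Both KO arrays lay below both WT arrays, as they did in 31.8% of all genes, and the difference was -0.31 (SE 0.13, limma adjusted p = 0.342, unadjusted p = 0.0483). *Pttg1* was also the 1 gene in which WT replicate 2 did not exceed WT replicate 1, with a difference of -0.05 between them.

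The chromosomal passenger complex corrects faulty attachments and then directs cytokinesis, and its 3 subunits other than *Aurkb* all had a higher mean in KO. *Cdca8* (borealin) read 9.77 and 9.56 in KO, against 7.99 and 9.10 in WT, a difference of 1.12 (SE 0.34, limma adjusted p = 0.211). *Incenp*, the scaffold that activates Aurora B, read 9.98 and 9.78 in KO, against 8.42 and 9.38 in WT, a difference of 0.98 (SE 0.30, limma adjusted p = 0.217). *Birc5* (survivin) was higher by 1.09. With *Aurkb*, the 4 subunits of the complex thus differed by between 0.98 and 1.12.

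**Figure D3:**
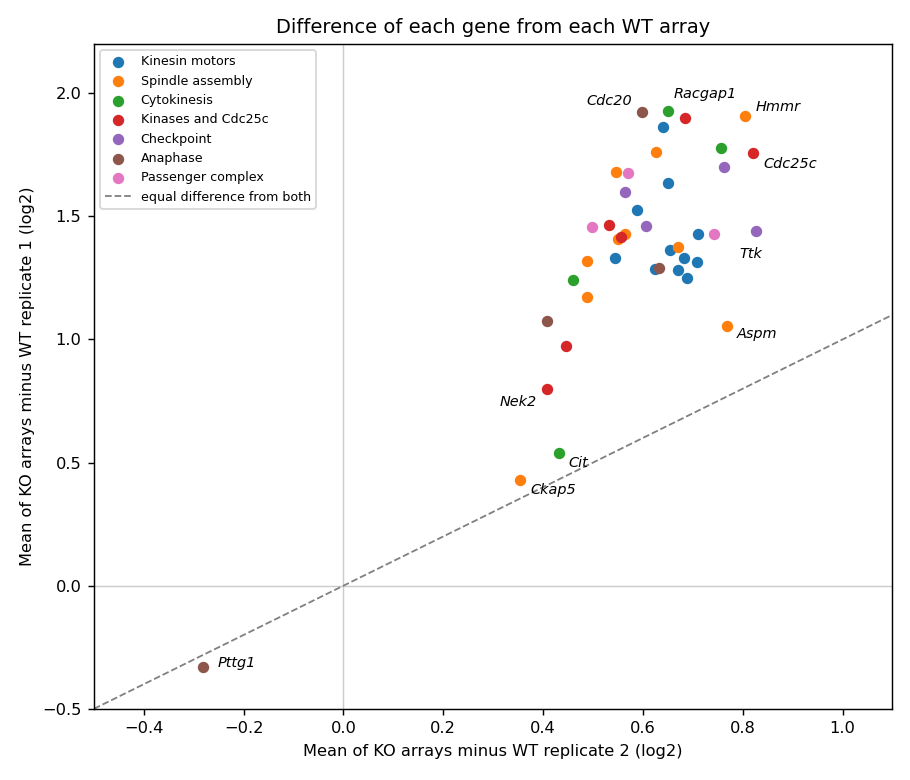
Mean of the KO arrays minus WT replicate 1 (y axis) against mean of the KO arrays minus WT replicate 2 (x axis), both log2, for the 42 genes, coloured by role, with a dashed line where the differences are equal. Differences from WT replicate 2 reach 0.83 while those from WT replicate 1 reach 1.93, and *Ckap5*, *Cit* and *Pttg1* lie close to the dashed line. The axes share the KO arrays, so the spread along the diagonal is not independent.

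The 3 genes for which the WT arrays nearly matched were thus *Ckap5*, *Cit* and *Pttg1*, with WT gaps of 0.08, 0.11 and -0.05. The WT gap is a part of the difference from WT replicate 1, so a small gap lowers that difference by construction. Of these 3, *Ckap5* held CCAAT and CHR matches, while *Cit* and *Pttg1* held neither, as did 8 of the 36 genes with a window (22.2%). The other genes with neither were *Birc5*, *Mad2l1*, *Tacc3*, *Kif18a*, *Nusap1* and *Plk4*, which differed by between 0.71 and 1.09. A relation of motifs to the WT gap was not tested.

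Related genes were read from the same fit to see how far the difference extended. Of 41 other measured genes of mitotic entry and mitosis, 40 had a higher mean in KO, against 41.2% of all genes. Their median difference was 0.87. The median was 1.27 against WT replicate 1 alone and 0.49 against WT replicate 2 alone. None of these passed the adjusted threshold, against 0.0802% of all genes called higher and 0.702% called lower. At an unadjusted p under 0.05, 34 were higher, against 5.88% of all genes. The smallest p was in *Shcbp1* (1.32), *Mki67* (0.71), *Sgo1* (1.16) and *Arhgap11a* (0.82). *Mki67* encodes the proliferation antigen Ki-67 and *Sgo1* protects centromeric cohesin. For *Mki67* the values were 11.89 and 11.89 in KO, against 11.12 and 11.24 in WT, so that its WT arrays were 0.12 apart. In this list too, WT replicate 2 exceeded WT replicate 1 in 39 genes, against 58.3% of all genes, by a median of 0.74.

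The APC/C subunits and *Fzr1*, its G1 activator, are needed in every cycling cell and in many that do not cycle. Of 15 measured, 14 had a higher mean in KO, against 41.2% of all genes, with a median difference of 0.21. The median was 0.37 against WT replicate 1 alone and 0.067 against WT replicate 2 alone. Against WT replicate 2, 2 of the 15 were past 1.2-fold upward, as were 6.01% of all genes. In the fit with all arrays, 2 were higher at an unadjusted p under 0.05, against 5.88% of all genes. These were *Anapc15*, by 0.85, and *Fzr1*, by 0.61. Beside this median of 0.21, the mitotic partners *Cdc20* and *Ube2c* had differences of 1.26 and 0.74, a contrast that was not tested. Spindle and furrow genes that also serve outside mitosis include those for gamma-tubulin, augmin, dynein regulators, septins and nonmuscle myosins. They had a higher mean in 25 of 30, against 41.2% of all genes. Their median was 0.24, or 0.33 against WT replicate 1 alone and 0.15 against WT replicate 2 alone. At an unadjusted p under 0.05, 8 of them were higher, against 5.88% of all genes. The smallest p was in *Haus6* (0.67), *Haus5* (0.73), *Haus8* (0.52), subunits of the augmin complex, and *Tubg1* (0.62), the main gamma-tubulin. Kinesins of transport and cilia showed no common direction, with 16 higher and 11 lower of 27, against 41.2% and 58.8% of all genes. Their median was 0.025, whose sign changed with the processing. It was 0.062 against WT replicate 1 alone and 0.011 against WT replicate 2 alone. *Kif24* (0.56) was the 1 that was higher at an unadjusted p under 0.05, and *Kif13b* (-0.46) the 1 that was lower. Over all genes, 5.88% were higher and 8.58% lower at that p. No gene of these 3 lists passed the adjusted threshold, against 0.0802% of all genes called higher and 0.702% called lower. CHR matches in the promoter window were present in 50% of the 30 other mitotic genes with a window, against 17.3% of measured genes. The share was 15% of the 20 kinesins of transport and cilia with a window and 14.3% of the 14 APC/C genes. It was 9.09% of the 22 spindle and furrow genes used outside mitosis.

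**Figure D4:**
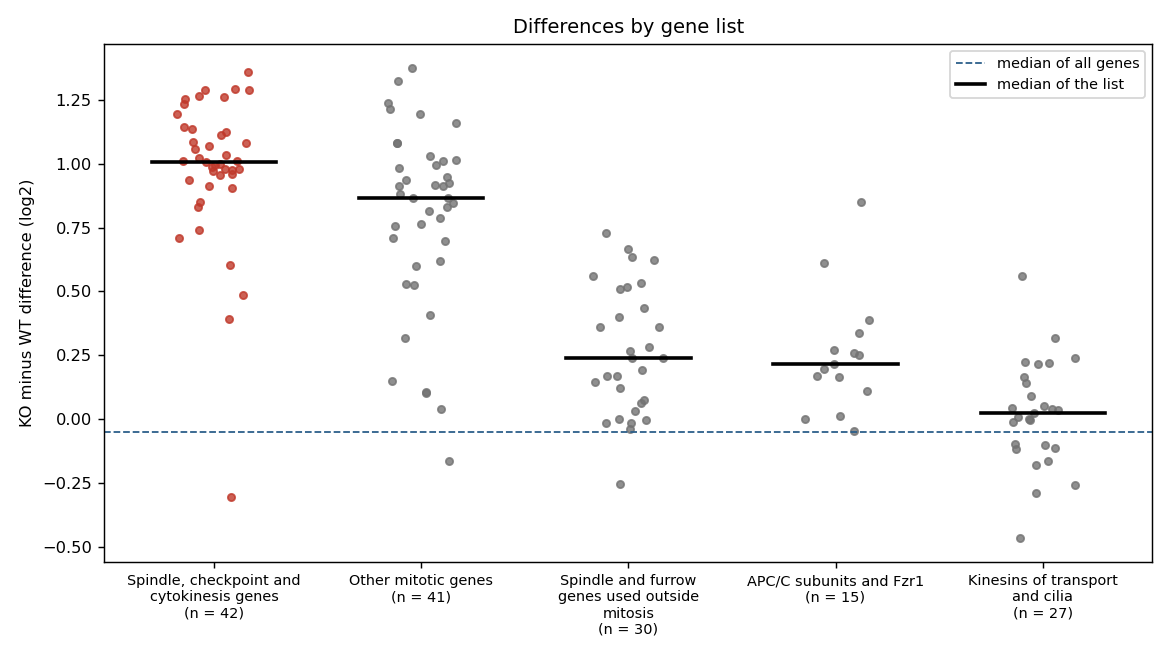
KO minus WT difference (log2) of each measured gene in the spindle, checkpoint and cytokinesis set (red) and in the related lists (grey), with black bars at list medians and a dashed line at the median of all genes, -0.05. The set (median 1.01) and the other mitotic genes (0.87) lie above the spindle and furrow genes used outside mitosis (0.24), the APC/C subunits (0.21) and the kinesins of transport and cilia (0.025).

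Markers of several cell types also differed between the groups. The summed linear level of 5 markers of alveolar type I cells was 8912 and 8415 in KO, against 16805 and 16310 in WT. At an adjusted p under 0.05 by limma, 2 of the 5 were lower, against 0.702% of all genes. The sum of 10 markers of distal epithelium was 45515 and 45246 in KO, against 60677 and 59132 in WT, with 3 of 10 lower by that test. A linear sum is carried by its brightest genes, and 4 of these 10 had a higher mean in KO, against 41.2% of all genes. Among them were *Epcam*, by 0.69 (limma adjusted p = 0.178), and *Etv5*, by 0.41 (limma adjusted p = 0.232). Airway epithelium (5 markers) summed to 8436 and 7804 in KO, against 14465 and 16952 in WT, and endothelium (7 markers) to 22297 and 21507 in KO, against 27099 and 28393 in WT, with 1 marker lower by that test in each. In the airway list *Sox2* and *Foxj1* had a higher mean in KO, by 0.49 and 0.05 (limma adjusted p = 0.365 and 0.876). Sums of 8 mesenchymal markers overlapped, at 30080 and 29991 in KO, against 28282 and 30536 in WT. Sums of 9 leukocyte markers were 1924 and 1783 in KO, against 2442 and 2663 in WT. The 5 measured of 10 erythroid markers summed to 2882 and 2762 in KO, against 4019 and 3948 in WT. *Alas2*, the brightest of these, differed by -0.66 (limma adjusted p = 0.0873). The other measured erythroid markers differed by between -0.17 and -0.05 (limma adjusted p between 0.594 and 0.870). No marker was at 0. The part of cell composition in the differences of the mitotic genes was not tested.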

How the data were processed

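RNA of E18.5 lung was measured on 4 arrays, 2 KO and 2 WT. The deposited values cover 30177 probe sets on a log2 scale, which the authors computed by RMA, using Affymetrix Expression Console (named in the submitters' processing notes, without versions). RMA corrects background, quantile-normalizes arrays and summarises probes, and the values carry no detection call. The median log2 value was 8.02 and 7.91 on the KO arrays and 7.99 and 8.02 on the WT arrays. Platform annotation gave 1 symbol for 21789 probe sets, several for 1621 and none for 6767. The brightest probe set stood for each of 999 genes with several, giving 19938 genes. Precision is limited by the number of arrays, and p-values measure the spread between these samples only, which may be technical.

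Every gene was fitted by lmFit and eBayes of limma 3.58.1 under R 4.3.3, two-sided and with no trend (2 residual and 4.42 prior degrees of freedom). P-values were adjusted across the 19938 genes after Benjamini and Hochberg, with 0.05 as threshold. Counts of genes past 1.2-fold and 2-fold carry no test. The code was tested on simulated data. Motifs were searched on both strands of RefSeq windows, and plots were made in Python 3.11.15 using matplotlib 3.10.9. Values on every array are given for the gene with the largest and the smallest difference of each role, any gene not higher in KO, the lowest reading, *Hmga2* and, chosen after its values were seen, *Aspm*, *Mki67*, *Nkx2-1* and *Sftpc*. *Epcam*, *Etv5*, *Sox2*, *Foxj1*, *Alas2*, *Bub3* and *Mad1l1* were also named after their values were seen. Apart from these, up to 4 genes of each related list are named by smallest p. The genes and lists were chosen with earlier results of these data known.

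The fit was repeated with a block for the replicate number, with arrays centred on their medians, after cyclic loess, on all but the dimmest 40 percent of genes, on averaged probe sets, by eBayes with trend and robust, a threshold of 0.10, each array left out in turn and, for motifs, the 100 bases before the start. A crossed block and the motif span of 50 bases on either side of the start were added after the data were seen. Same-numbered arrays were checked for shared deviations from their group means, and the correlation was -0.238 over all genes and 0.09 over the set, so the numbers were not taken to pair the samples.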

Additional observations from a re-analysis of the deposited data

How the results depend on the processing

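Over the 11 alternative fits the difference lay between 0.34 and 1.93 in the 41 genes and between -0.36 and -0.27 in *Pttg1*. Since the groups did not overlap in any of the 42 genes, leaving out an array could not turn a sign, and the blocks, the other eBayes setting and the filter on dim genes leave the difference itself as it was. The number of set genes higher at an adjusted p under 0.05 (0) became 31 with the replicate block, 11 with the crossed block, 2 with median centring (*Aspm*, *Ttk*), 1 with cyclic loess (*Aspm*), 2 without the dimmest 40 percent of genes (*Aspm*, *Ttk*) and 2 at a threshold of 0.10. These counts stood against 1.21%, 1.04%, 0.366%, 0.401% and 0.619% of all genes in the first 5 of those settings. The share of all genes at the threshold of 0.10 was not counted. With 1 array left out, the lone array of its group is assumed to vary like the other group. Without a WT array every gene had the same SE of 0.155. The gap between WT arrays then did not enter the test, so the counts of calls given for those fits reflect only the size of the difference. The count at an unadjusted p under 0.05 (41) ranged between 16 without KO replicate 1 (1.23% of all genes) and 41, with 29 without KO replicate 2 (2.49%). Over all genes, 156 were called (16 higher, 140 lower). The count was 602 with the replicate block (241 higher, 361 lower), 512 crossed (207, 305), 294 centred (73, 221), 350 with loess (80, 270), 301 without dim genes (74, 227) and between 0 and 6292 with an array left out, the ends being KO replicate 2 and WT replicate 2. The causes were not tested. The median difference of 1.01 lay between 0.61 (without WT replicate 1) and 1.42 (without WT replicate 2), and between 0.96 and 1.01 in the other fits with all arrays. The gap between WT arrays was 0.65 with centring and 0.62 with loess, against 0.81. The median of the transport and cilia kinesins (0.025) turned to -0.014 with loess and -0.0037 with averaged probe sets, and lay between -0.025 (without KO replicate 1) and 0.067 with an array left out. The CHR share of 72.2% was 25.0% in the 100 bases before the start.

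Deviations of same-numbered arrays correlated at -0.238 over all genes, and neither the block by number (31 genes of the set) nor the crossed block (11) is part of the design. With 2 arrays a group, and no call of signal over background, the size of most differences depends on which WT array is used, less so for *Ckap5*, *Cit* and *Pttg1*.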
